A study of Mus musculus with 24 samples.

Results

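Stem and multipotent progenitor genes are the receptors, surface proteins and transcription factors that haematopoietic stem cells and multipotent progenitors express and that most cells turn down as they commit to a lineage. The 35 genes described here were taken by symbol from the count table, which lists 24421 genes, and all 35 were present in it. They fall into 5 groups: 6 receptors and ligands, 6 surface and membrane markers, 7 homeobox genes and cofactors, 7 genes of the GATA-SCL-RUNX circuit, and 9 other nuclear and RNA regulators.

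RNA was sequenced from common lymphoid progenitors (CLPs), sorted as Lin-IL-7R+, and from B cell progenitors, sorted as B220+IgM-IL-7R+, of 12 mice. The 4 genotypes, with 3 mice each, were PLCgamma1+/+PLCgamma2+/+ (wild type), PLCgamma1-/-PLCgamma2+/+ (PLCγ1-deficient), PLCgamma1+/+PLCgamma2-/- (PLCγ2-deficient) and PLCgamma1-/-PLCgamma2-/- (double-deficient), and each mouse gave 1 library of each population, 24 in all. PLCγ1 and PLCγ2 are the phospholipases that turn receptor signals into calcium and diacylglycerol signals, and the study asked what early lymphoid cells lose without them. By the study's methods the cells were CD45.2+ marrow cells from lethally irradiated CD45.1+ recipients, 6 to 8 weeks after they received donor marrow. Every donor, wild type included, carried Rosa-YFP and MxCre, a Cre driven by a promoter that answers to type I interferon, and received 3 injections of poly(I-C) at an age of 6 to 12 weeks, with its marrow taken 3 weeks after the last of them, so Plcg1 was deleted in haematopoietic cells at large, whereas Plcg2 was missing from the germ line. How many donors stood behind the 3 recipients of a genotype is not given in the sources used here, so the p-values measure the spread between recipients.

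In the marrow, the receptor tyrosine kinases Kit and Flt3 carry the growth signals on which stem cells and multipotent progenitors depend, and Flt3 remains on CLPs. Gata2, Tal1, Lyl1, Lmo2, Erg, Runx1 and Gfi1b are transcription factors that bind together at the regulatory elements of stem cell genes. The Hoxa genes with their cofactors Meis1 and Pbx3 sustain self-renewal, and their expression declines during lineage commitment.

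Several measurements of the libraries bear on every value that follows. CLP libraries held between 4232345 and 33219995 reads on genes and B cell progenitor libraries between 1479582 and 25057223, and 17.9% to 45.2% of reads lay on no gene in CLPs against 59.9% to 87.3% in B cell progenitors, with no overlap between the populations. The B cell progenitor libraries of PLCγ1-deficient mouse 2 and PLCγ2-deficient mouse 2 had 18729 and 18722 genes with at least 10 reads, against 10253 to 14260 in the other B cell progenitor libraries. The CLP label was not separated from the B lineage by its markers: Ebf1, a transcription factor of early B cells, stood at 99.9 to 776 normalized reads per 1000000 (CPM) in CLPs and 177 to 938 in B cell progenitors, and Mpo, a myeloid enzyme, at 1237 to 4335 and 638 to 3961. Plcg2 ranged from 98.6 to 138 in PLCγ2-deficient and double-deficient CLPs against 196 to 282 in the other CLP libraries, and from 72.1 to 111 against 183 to 247 in B cell progenitors. Whole-gene counts did not separate the Plcg1 genotypes, at 70.9 to 185 in the PLCγ1-deficient and double-deficient CLP libraries and 90.3 to 113 in the other CLP libraries. Xist was called higher, and all 4 Y-linked genes measured were called lower, in PLCγ1-deficient and in double-deficient B cell progenitors against wild type, so that the sex of the cells and the Plcg1 genotype cannot be told apart. In bulk RNA, fewer cells of a type and less RNA per cell cannot be told apart.

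The 35 genes differed widely in level. Divided by the length of their merged exons, the genes with the highest median over the 12 CLP libraries were Lyl1 at 91.6 CPM per kb and Myb at 90.4, followed by Sox4 at 68.4, Cd93 at 59.5, Lmo2 at 55.5 and Erg at 39.4. In B cell progenitors the order was Myb at 131, Lyl1 at 83.7, Sox4 at 80.3, Cd93 at 57.0, Lmo2 at 42.6 and Erg at 34.3. Myb, Sox4 and Cd93 are also expressed by committed B cell progenitors. At the low end stood genes regarded as most restricted to stem cells, with medians per kb of 0.128 CPM in CLPs for Mecom, 0.299 for the homeobox gene Nkx2-3, 0.340 for Procr, which encodes the endothelial protein C receptor, and 0.348 for Tek, the angiopoietin receptor. As a measure of reads on genes not used in marrow, 936 olfactory receptor genes together held 0.0242 to 0.371 CPM per kb in CLP libraries and 0.0330 to 1.48 in B cell progenitor libraries. In at least 1 library, 3 members in CLPs and 9 in B cell progenitors stood at or under that level, among them Mecom in 3 CLP and 5 B cell progenitor libraries and Nkx2-3 in 2 and 7. Procr was at 0 reads in 2 CLP libraries and 1 B cell progenitor library, which allows up to 0.709 CPM in the shallowest of the CLP libraries.

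**Figure D1:**
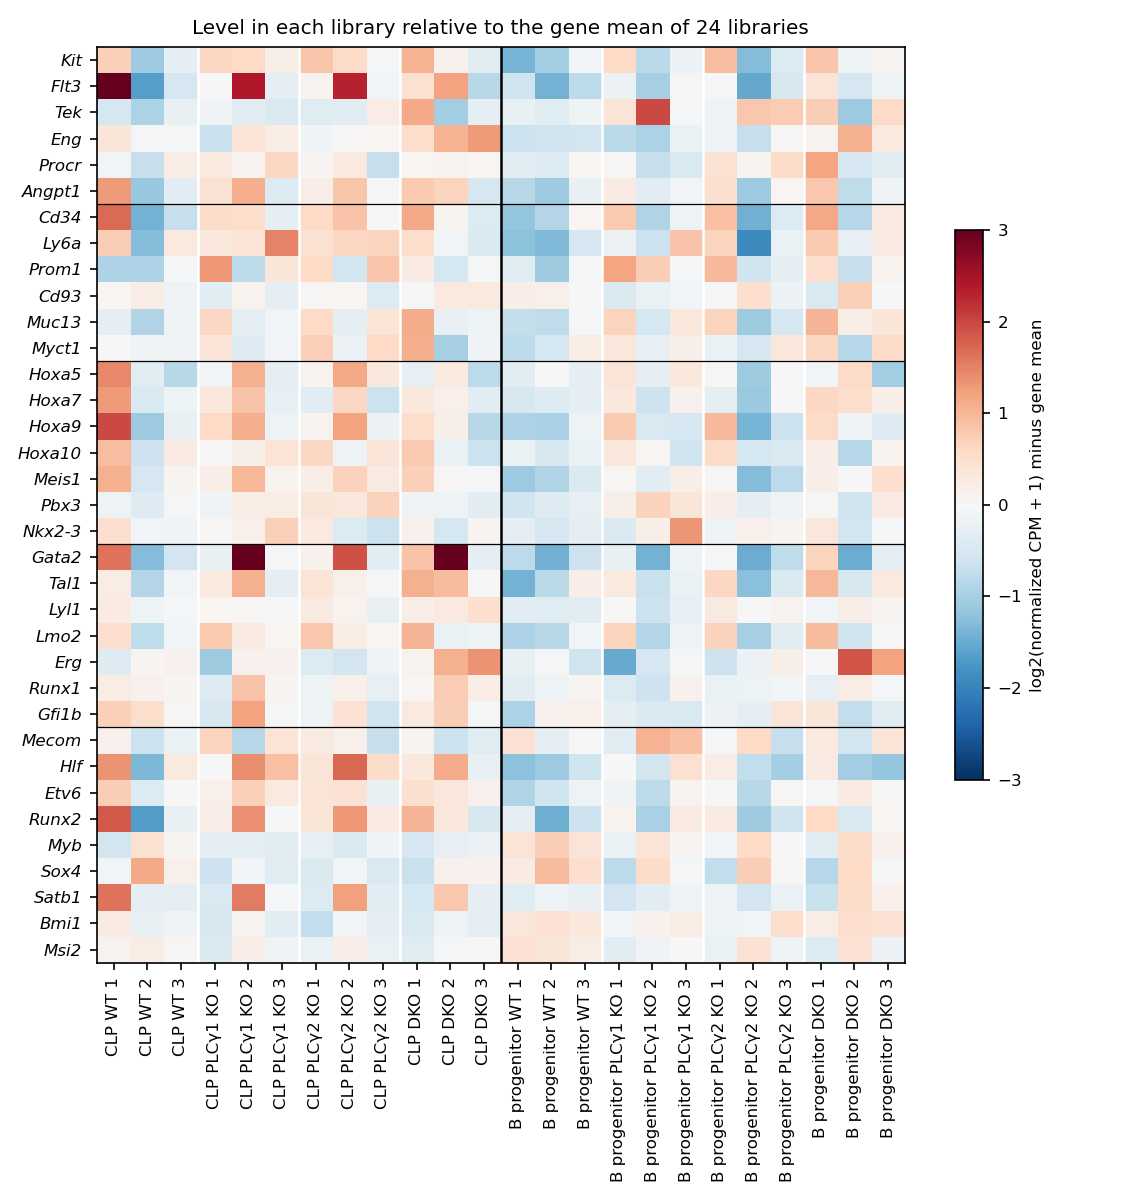
Level of each of the 35 genes (rows, in 5 groups separated by lines) in each of 24 libraries (columns), as log2(normalized CPM + 1) minus the mean of that gene over 24 libraries, with colours capped at 3 above and below. The CLP libraries of wild-type mouse 1 and of PLCγ1-deficient, PLCγ2-deficient and double-deficient mice numbered 2 stand out in Flt3, Gata2, Hlf and Satb1, and Erg is highest in both populations of double-deficient mice 2 and 3.

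Flt3 and Gata2 varied widely between mice of 1 genotype in CLPs. Flt3 measured 735, 25.8 and 59.1 CPM in wild-type CLPs, 83.9, 451 and 69.0 in PLCγ1-deficient CLPs, 89.99, 419.8 and 79.1 in PLCγ2-deficient CLPs and 115, 196 and 46.5 in double-deficient CLPs. Gata2 measured 414, 52.9 and 88.7 in wild-type CLPs, 114, 1160.4 and 129 in PLCγ1-deficient CLPs, 145, 503 and 104 in PLCγ2-deficient CLPs and 241, 1128 and 108 in double-deficient CLPs. In each genotype 1 CLP library therefore stood above the other two in both genes, and it was the same library: wild type 1, PLCγ1-deficient 2, PLCγ2-deficient 2 and double-deficient 2. These libraries were singled out by their values, so what follows describes them and tests nothing. Satb1, a chromatin organizer of early lymphoid cells, stood at 216 to 384 in these 4 libraries and 85.3 to 120.1 in the other 8 CLP libraries. Hlf, a stem cell transcription factor, stood at 17.9 to 28.03 against 2.44 to 15.5. The B cell progenitor libraries of the same 4 mice held 28.4 to 58.5 for Flt3, 46.6 to 76.4 for Gata2 and 2.75 to 4.94 for Hlf, and so did not share the high values of these genes. Satb1 was at 81.7 to 180 in them, and double-deficient mouse 2 had the highest value of all B cell progenitor libraries. The summed level of 10 T, NK and innate lymphoid markers was 445 to 857 CPM in the 4 CLP libraries, with Gata3 at 67.4 to 126, against 136 to 399 and 2.19 to 53.3 in the other 8. Their part in these values was not tested.

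Other genes were high in other mice, again singled out by their values, in both populations. Kit stood at 114 to 156 CPM in the 6 libraries of the knockout mice numbered 1 and at 27.7 to 124 in the other 18 libraries. Lmo2 stood at 174 to 220.0 against 54.3 to 154, and Muc13, a membrane mucin of stem and progenitor cells, at 51.0 to 74.3 against 15.6 to 44.9, so that the ranges of Lmo2 and Muc13 did not overlap. Cd34 stood at 99.2 to 150.5 in the 6 libraries, while the highest of all was 219 in CLPs of wild-type mouse 1. The same 6 libraries had the highest sums of 7 myeloid progenitor and granulocyte markers, 5908 to 8032 against 1204 to 4974 in the other 18, and the lowest Il7r, 134 to 159 against 182 to 506. The part of these in the values was not tested. No wild-type library was among these 6.

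**Figure D2:**
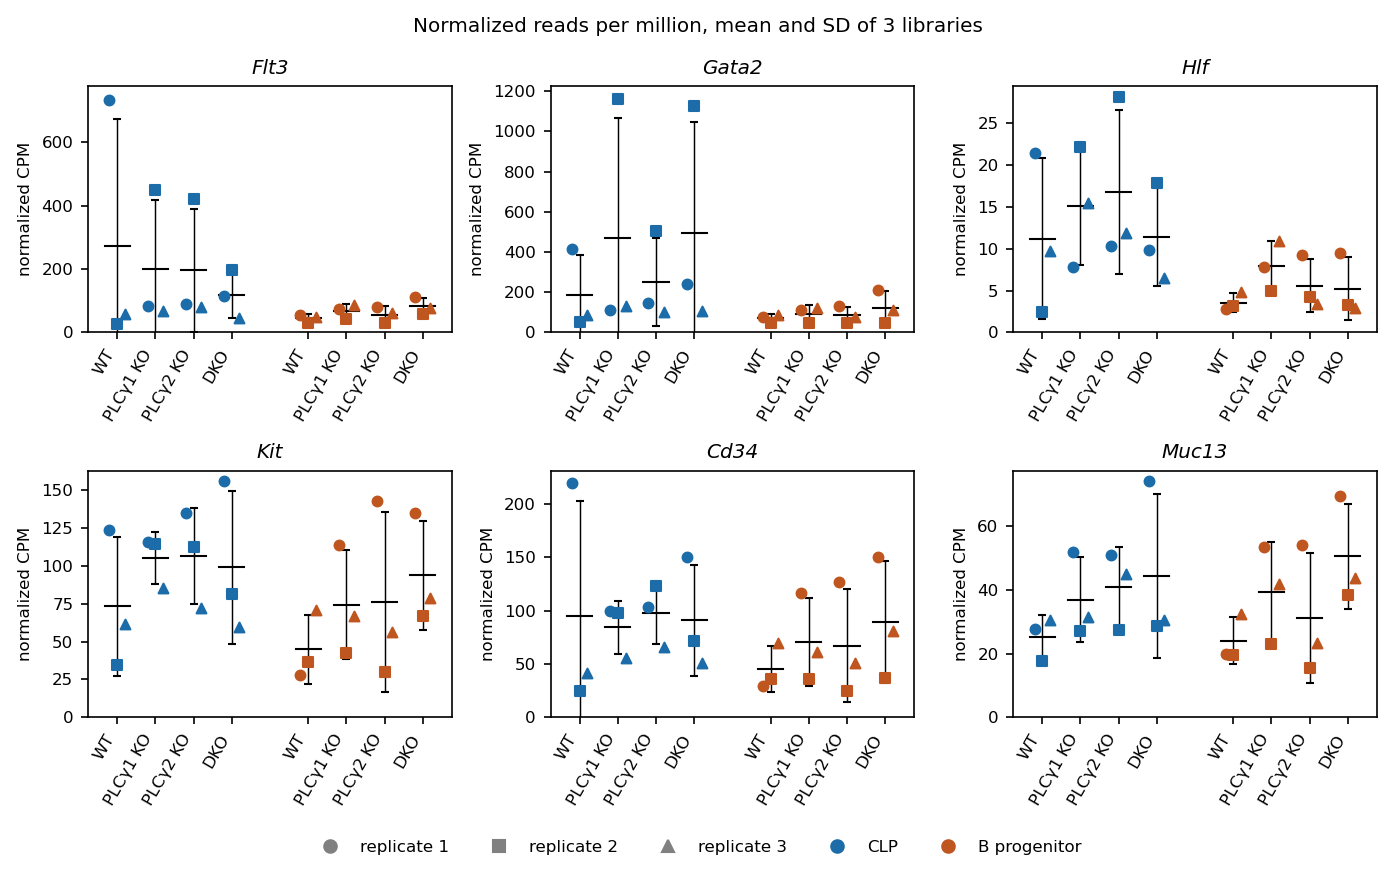
Normalized CPM of 6 genes in each library (linear axes from 0), by population and genotype, with points shaped by replicate number, the mean as a horizontal line and the SD of 3 libraries as a bar, not drawn under 0. In CLPs, Flt3, Gata2 and Hlf are highest in 1 library of each genotype, and in both populations Kit, Cd34 and Muc13 are high in the knockout mice numbered 1.

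The effect of the lack of both phospholipases was then examined. In CLPs, 0 of 35 genes were called between double-deficient and wild-type mice by edgeR's quasi-likelihood test, where a call needs a p, adjusted by the Benjamini-Hochberg method, of 0.05 or less together with a log2 fold change of 0.5 or more in size, against 0.0921% of 15209 genes tested. An unadjusted p of at most 0.05 was reached by 3 of the 35, Eng, Erg and Tal1, all higher in double-deficient CLPs, where 7.52% of all genes reached it (3.68% higher), and DESeq2 called 0. The median log2 fold change of the 35 genes was -0.05, beside -0.03 over all genes tested, and 16 of 35 were above 0, but without the CLP library of wild-type mouse 1 that median was 0.45. In B cell progenitors, 33 of the 35 genes passed the filter on low counts, Procr and Nkx2-3 being left out, and 0 of 33 were called between double-deficient and wild-type mice, against 0.893% of 15001 genes. Here 9 of 33 reached an unadjusted p of at most 0.05, all higher in double-deficient cells, where 12.3% of all genes reached it (5.71% higher and 6.56% lower). The median log2 fold change was 0.63, beside -0.02 over all genes tested, and 28 of 33 were above 0, where 48.2% of all genes were. DESeq2 called 2 of the 33, Eng and Erg. The number of all genes called was 28 to 550 over the alternatives other than left-out libraries, DESeq2 among them.

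Eng encodes endoglin, a coreceptor for TGFβ family ligands that marks long-term repopulating stem cells. It measured 75.3, 56.8 and 56.8 CPM in wild-type CLPs and 83.7, 121 and 141 in double-deficient CLPs. Among B cell progenitors it measured 37.1, 37.8 and 39.2 in wild-type mice and 62.9, 123 and 71.5 in double-deficient mice. The double-deficient libraries were above all wild-type libraries in both populations. The log2 fold change was 0.86 (SE 0.26, adjusted p = 0.398, edgeR) in CLPs and 1.18 (SE 0.27, adjusted p = 0.0782, edgeR) in B cell progenitors. Neither passed the threshold across all genes.

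Erg encodes an ETS family transcription factor required for stem cell maintenance. It measured 98.4, 136 and 140.3 CPM in wild-type CLPs and 137, 268 and 330.3 in double-deficient CLPs, where the lowest double-deficient library lay between the wild-type libraries. For B cell progenitors the values were 109.8, 124 and 84.8 in wild-type mice and 130.1, 474 and 299 in double-deficient mice, with no overlap. The log2 fold change was 0.96 (SE 0.35, adjusted p = 0.528, edgeR) in CLPs and 1.51 (SE 0.43, adjusted p = 0.167, edgeR) in B cell progenitors.

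Double-deficient mice 2 and 3 had the highest Erg of all mice in both populations, and their sums of 10 B lineage markers, 5414 and 7093 CPM in CLPs and 8886 and 5981 in B cell progenitors, were among the highest as well, whereas double-deficient mouse 1 had 2446 and 2507. The part of B lineage transcripts in the Erg values was not tested. Without the B cell progenitor library of double-deficient mouse 1, Erg was called against wild type, with a log2 fold change of 1.87 (adjusted p = 0.0442, edgeR). Eng was called there when only wild-type and double-deficient libraries entered the fit (adjusted p = 0.0480) and without the 2 libraries with the most detected genes (adjusted p = 0.0404, edgeR in both). In CLPs both genes were called, with log2 fold changes of 1.13 for Eng and 1.33 for Erg, when the summed myeloid and T, NK and innate lymphoid markers were added as covariates, an alternative chosen after the data had been seen (adjusted p = 0.0355 and 0.0434, edgeR). With the same covariates in B cell progenitors neither gene was called, as in the main fit without them. Over all alternatives the adjusted p ran from 0.0355 to 0.847 for Eng and 0.0434 to 0.910 for Erg in CLPs, and from 0.00292 to 0.544 and 0.0158 to 0.417 in B cell progenitors.

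Against PLCγ1-deficient instead of wild-type mice, 0 of 35 genes were called in CLPs (0.0263% of all genes, 2 of 35 at an unadjusted p of at most 0.05, 0 with DESeq2) and 0 of 33 in B cell progenitors (0.213%, 3 of 33, 2 with DESeq2). That p was reached by 4.29% of all genes in CLPs and by 16.6% in B cell progenitors. Over the alternatives other than left-out libraries, DESeq2 among them, 0 to 96 of all genes were called in CLPs. The range was 0 to 802 in B cell progenitors. The median log2 fold change of the tested members was -0.08 in CLPs and 0.23 in B cell progenitors, beside -0.03 over all genes in both. Eng was at 36.5, 77.4 and 67.8 CPM in PLCγ1-deficient CLPs and at 32.8, 29.4 and 50.8 in PLCγ1-deficient B cell progenitors, below every double-deficient library of the same population. Erg was at 60.7, 141 and 141 in CLPs and at 44.1, 90.6 and 124 in B cell progenitors. The log2 differences of double-deficient from PLCγ1-deficient mice were 0.92 (SE 0.26) and 1.18 (SE 0.28) for Eng and 1.09 (SE 0.35) and 1.78 (SE 0.44) for Erg, with adjusted p from 0.150 to 0.769 (edgeR). By the labels, same-numbered mice of these 2 genotypes share only a number, but their libraries deviated together in these same data. When that number was fitted as a block, Erg was called in B cell progenitors at 1.75 (adjusted p = 0.0439, edgeR, with 0.00415 to 0.758 over all alternatives). The number of all genes called moved from 32 to 100 there, and from 4 to 17 in CLPs with 0 of the 35 genes among them. These comparisons share their double-deficient libraries with those against wild type.

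The promoters of both genes are shown because Eng and Erg had the lowest unadjusted p among the 35 genes in both populations. The windows run from 250 bases before to 50 bases after a RefSeq start (GRCm38.p6, the build also called mm10), and capitals mark AGGAAG or CGGAAG, the core of ETS factor motifs, and AGATAA, the GATA motif, on either strand.
Eng, chr2:32646345-32646644, plus strand: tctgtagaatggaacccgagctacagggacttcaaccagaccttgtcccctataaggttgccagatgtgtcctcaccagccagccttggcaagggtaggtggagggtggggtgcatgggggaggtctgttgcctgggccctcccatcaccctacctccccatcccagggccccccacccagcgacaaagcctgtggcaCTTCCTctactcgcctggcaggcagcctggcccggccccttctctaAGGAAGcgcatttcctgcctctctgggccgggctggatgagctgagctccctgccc
Erg, chr16:95459299-95459598, minus strand: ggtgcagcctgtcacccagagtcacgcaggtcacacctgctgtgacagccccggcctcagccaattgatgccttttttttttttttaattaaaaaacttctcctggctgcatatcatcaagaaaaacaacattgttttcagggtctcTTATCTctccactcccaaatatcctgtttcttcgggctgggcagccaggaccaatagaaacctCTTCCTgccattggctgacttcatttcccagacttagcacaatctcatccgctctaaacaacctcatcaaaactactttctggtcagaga

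The Eng window held 2 matches to AGGAAG and 0 to AGATAA, and the Erg window 1 of each. The Erg windows at chr16:95586544-95586843 and chr16:95530316-95530615 held 0 of both. RefSeq windows matched 30 of the 35 genes, 46 windows in all. AGGAAG lay in 32.61% of these 46 windows and in 35.35% of all 32851 windows outside chromosome 18, CGGAAG in 13.04% and 16.85%, and AGATAA in 8.7% and 11.18%. CAGCTG, an E-box motif, lay in 10.87% and 16.3%, and TGTGGT, the RUNX motif, in 8.7% and 16.76%. These motifs were thus no more frequent in the windows of the 30 genes than in all windows counted. Eng shares exon positions with Fpgs on the opposite strand, and the library kit does not mark strand; Fpgs itself was at 42.7 CPM or less.

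**Figure D3:**
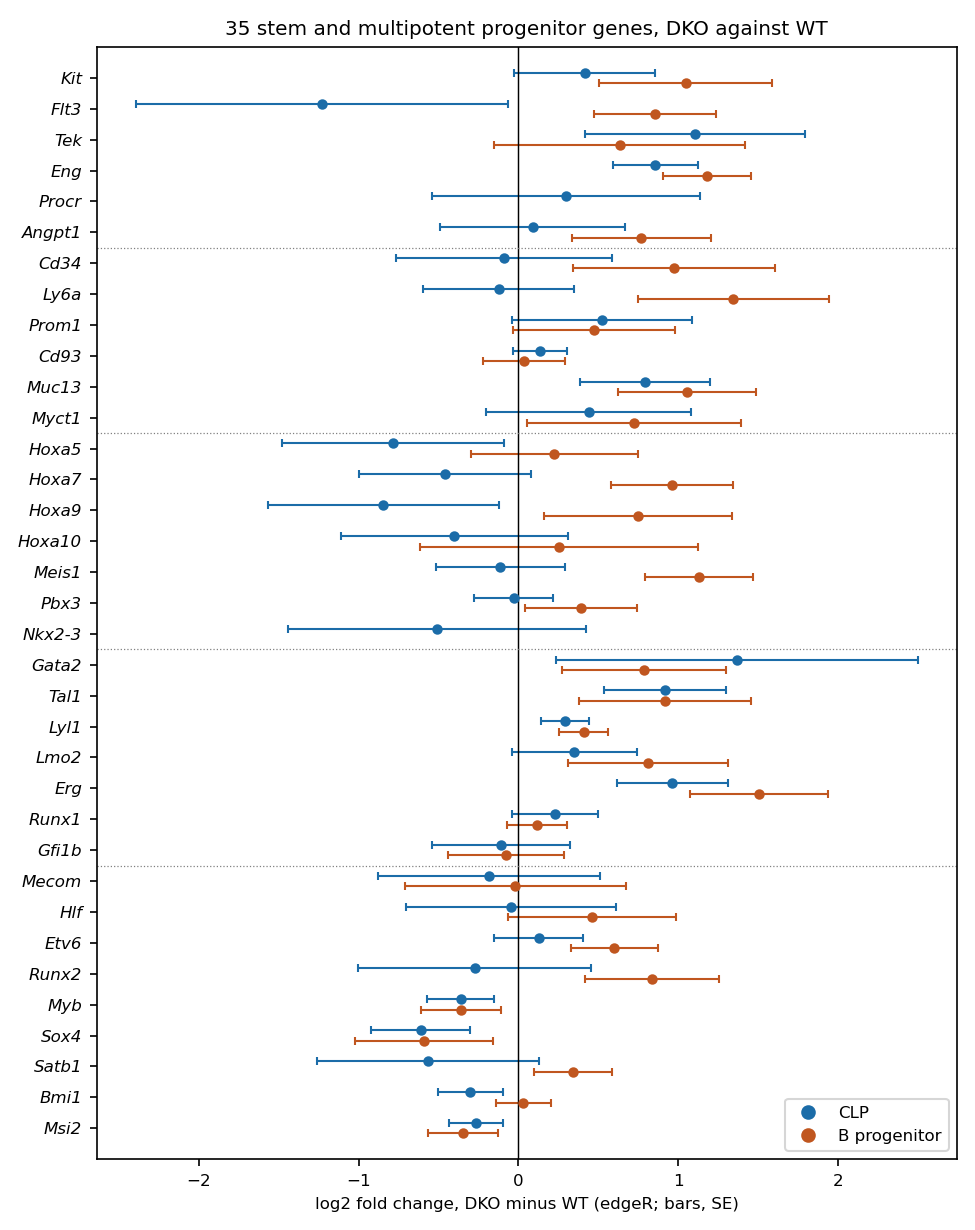
Log2 fold change of double-deficient against wild-type libraries (edgeR, bars show the SE) for each of the 35 genes in CLPs (blue) and in B cell progenitors (orange, 33 genes tested). In B cell progenitors 28 of 33 genes lie above 0, in CLPs 16 of 35, and Eng and Erg lie above 0 in both.

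The other receptors and surface markers did not pass the test in either population. All 5 receptors and ligands tested and all 6 surface markers had a positive log2 fold change between double-deficient and wild-type B cell progenitors, with medians of 0.86 and 0.85. Against wild type, 5 of 5 and 5 of 6 were also positive in PLCγ1-deficient B cell progenitors (0.66 and 0.70). In PLCγ2-deficient ones 5 of 5 and 6 of 6 were (0.59 and 0.46). Between double-deficient and PLCγ1-deficient B cell progenitors 4 of 5 and 5 of 6 were positive, with medians of 0.27 and 0.22. Flt3 was at 55.5, 30.8 and 48.3 CPM in wild-type and 111, 58.5 and 76.8 in double-deficient B cell progenitors (log2 fold change 0.86, SE 0.38, adjusted p = 0.395, edgeR). Ly6a, which encodes the stem cell antigen Sca-1, was at 7.67, 7.20 and 13.3 against 34.1, 16.2 and 23.04 (1.35, SE 0.60, adjusted p = 0.388, edgeR). For both genes every double-deficient library was above every wild-type library, but Ly6a reached 31.5 in a PLCγ2-deficient and 36.1 in a PLCγ1-deficient library. Kit was at 27.7, 36.3 and 70.7 against 135, 67.1 and 79.1, with groups that overlapped (1.05, SE 0.54, adjusted p = 0.461, edgeR). Muc13 was at 19.97, 19.5 and 32.6 in wild-type B cell progenitors and at 69.5, 38.5 and 43.7 in double-deficient B cell progenitors (1.05, SE 0.43, adjusted p = 0.342, edgeR). In CLPs it was at 27.9, 17.5 and 30.7 against 74.3, 28.7 and 30.5, with overlapping groups (0.79, SE 0.41, adjusted p = 0.696, edgeR), and the log2 fold change was 0.19 without double-deficient 1 and 0.05 with the marker covariates. Angpt1, the ligand of Tek, ranged from 16.1 to 90.5 over all CLP libraries and from 16.7 to 64.6 over B cell progenitors. Prom1, which encodes the pentaspan membrane protein CD133, ranged from 4.39 to 24.2 and from 3.87 to 22.4, in both populations highest in PLCγ1-deficient mouse 1. Cd93 was the most even of the surface markers, from 292 to 474 in CLPs and 281 to 629.7 in B cell progenitors, whereas Myct1 ranged from 0.714 to 6.30 and from 0.901 to 4.26.

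The homeobox group had opposite signs in the 2 populations. All 7 members had a negative log2 fold change between double-deficient and wild-type CLPs, with a median of -0.46, and all 6 tested had a positive one in B cell progenitors, with a median of 0.57. No member of the group was called in either. Against wild type, 6 of 6 were also positive in PLCγ1-deficient B cell progenitors (median 0.67) and 4 of 6 in PLCγ2-deficient ones (0.30). Between double-deficient and PLCγ1-deficient B cell progenitors 2 of 6 were positive, with a median of -0.14. Hoxa9 was at 54.6, 5.60 and 11.02 CPM in wild-type and 19.2, 14.8 and 6.81 in double-deficient CLPs. Hoxa7 was at 15.99, 4.14 and 5.36 against 7.68, 6.78 and 4.58, and Meis1 at 28.8, 9.02 and 14.1 against 22.4, 13.7 and 12.8. In all of these the CLP library of wild-type mouse 1 was the highest, and without it the log2 fold changes of Hoxa7 and Meis1 turned positive, to 0.37 and 0.45. Meis1 in B cell progenitors was at 5.71, 6.66 and 9.50 in wild-type and 15.4, 13.5 and 19.2 in double-deficient mice (1.13, SE 0.34, adjusted p = 0.192, edgeR), and Hoxa7 at 4.03, 4.40 and 4.75 against 9.83, 9.18 and 6.89 (0.96, SE 0.38, adjusted p = 0.328, edgeR). The difference between populations in the double-deficient effect was tested as an interaction, in a fit without a term for the mouse. It called 0 of 35 genes and 0 of all 17212 genes tested (0%). An unadjusted p of at most 0.05 was reached by 1 of the 35, where 1.37% of all genes reached it. DESeq2 called 0, as did edgeR with the mouse as a block. For Meis1 the interaction was 1.23 (SE 0.55), with an adjusted p of 1.00 (edgeR). The opposite signs were therefore not shown to differ between the populations. Of the remaining members, Hoxa5 ranged from 2.15 to 14.3 CPM in CLPs, highest in wild-type mouse 1, and Hoxa10 from 0.454 to 3.33, highest in the same library. Pbx3 was narrower, from 3.66 to 8.81 in CLPs and 3.00 to 8.87 in B cell progenitors.

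In the GATA-SCL-RUNX circuit, 6 of 7 genes had a positive log2 fold change in double-deficient CLPs and 6 of 7 in double-deficient B cell progenitors, with medians of 0.35 and 0.79. Markers of several other cell types had fold changes of the same sign, none of them called. In both populations 6 of 6 erythroid and megakaryocyte markers tested were positive (medians 1.15 and 1.03), as were 8 of 8 macrophage (0.58 and 0.77) and 7 of 7 myeloid markers (0.82 and 0.79). Plasmacytoid dendritic markers were positive for 5 of 5 in B cell progenitors but 1 of 5 in CLPs. T, NK and innate lymphoid markers were positive for 8 of 10 in B cell progenitors and 2 of 10 in CLPs. Among them Il2ra was called lower in double-deficient B cell progenitors. Endothelial markers were positive for 4 of 5 and 0 of 5. In each single deficiency against wild type, 6 of 6 erythroid and megakaryocyte markers were positive in both populations. So were 7 of 7 myeloid and 7 or 8 of 8 macrophage markers. The summed erythroid and megakaryocyte markers were at 85.3 to 180.4 CPM in wild-type and 152 to 417 in double-deficient CLPs, and at 49.97 to 154 and 92.2 to 404 in B cell progenitors, with Hba-a1 and Hbb-bt at 0 in every library. The macrophage markers summed to 135 to 217 against 177 to 389 in CLPs and 78.99 to 215 against 135 to 315 in B cell progenitors. The part of the erythroid, megakaryocyte and macrophage markers in the values of the circuit was not tested. Tal1, also called SCL, was at 30.9, 13.9 and 24.7 CPM in wild-type and 56.6, 52.0 and 26.0 in double-deficient CLPs (0.92, SE 0.38, adjusted p = 0.620, edgeR). Its groups overlapped in B cell progenitors. Lyl1, a close relative of Tal1, was among the most even of the 35 genes. It was at 125, 119.9 and 125 in wild-type, 155, 99.0 and 130.1 in PLCγ1-deficient, 188, 155 and 167 in PLCγ2-deficient and 147, 179 and 165 in double-deficient B cell progenitors. The double-deficient and the PLCγ2-deficient libraries were above all wild-type libraries, with log2 fold changes of 0.41 (SE 0.15, adjusted p = 0.300) and 0.48 (SE 0.15, adjusted p = 0.919, edgeR in both). Exons of Lyl1 overlap those of Nfix on the opposite strand, and Nfix was at 65.1 CPM or less. Lmo2, the bridging protein of the circuit, had log2 fold changes of 0.35 (SE 0.39) in CLPs and 0.81 (SE 0.50) in B cell progenitors. Runx1, required for the first definitive blood stem cells, ranged from 134 to 315.5 CPM over all CLP libraries and from 114 to 203 over B cell progenitors. Gfi1b, a transcriptional repressor, ranged from 9.25 to 34.97 and from 6.98 to 19.3, and was the member of the circuit with a negative log2 fold change in double-deficient mice, -0.11 (SE 0.43) in CLPs and -0.08 (SE 0.36) in B cell progenitors.

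In double-deficient CLPs 8 of 9 nuclear and RNA regulators had a negative log2 fold change, with a median of -0.27, whereas 5 of 9 had a positive one in B cell progenitors, with a median of 0.03. Sox4, a transcription factor needed for early B cell survival, was at 329, 767 and 386 CPM in wild-type and 218, 379 and 379.9 in double-deficient CLPs (-0.61, SE 0.31, adjusted p = 0.685, edgeR), and without wild-type 2 the log2 fold change was -0.12. PLCγ1-deficient CLPs held 226, 327 and 269, and PLCγ2-deficient CLPs 258, 328 and 253, all below every wild-type library, with log2 fold changes of -0.85 (SE 0.31, adjusted p = 1.00) and -0.81 (SE 0.31, adjusted p = 0.939, edgeR in both). Sox4 stood at 414, 674 and 493 in wild-type and at 191, 526 and 333 in double-deficient B cell progenitors. Runx2, a relative of Runx1, reached 534 CPM in CLPs of wild-type mouse 1 against 45.8 and 126.6 in the other two wild-type CLP libraries. Its log2 fold change was -0.27 (SE 0.73) in CLPs and 0.84 (SE 0.42) in B cell progenitors. Msi2 kept within 82.6 to 131 and 84.2 to 152.

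Genes whose groups did not overlap were counted next, which needs no model. Among B cell progenitors, 9 of 33 genes were higher in every double-deficient than in every wild-type library (Eng, Erg, Meis1, Lyl1, Hoxa7, Muc13, Ly6a, Flt3 and Etv6), against 9.03% of all genes tested, and 0 of 33 were lower, against 10.2%. In CLPs 1 of 35 was higher (Eng, against 6.27%) and 1 was lower (Msi2, an RNA-binding protein, against 7.32%). Against PLCγ1-deficient mice the double-deficient libraries were all higher for 2 of 35 genes in CLPs (Eng and Lyl1, against 4.33%) and 3 of 33 in B cell progenitors (Eng, Erg and Bmi1, against 6.31%), and lower for 0 (against 4.7% and 10.5%). The wild-type B cell progenitors included none of the libraries highest in myeloid markers, and the sum of these markers was 1204 to 3799 CPM in them and 2422 to 5908 in double-deficient B cell progenitors. Eng and Erg were not called in these cells by the edgeR fit without covariates. A fit with the summed myeloid and T, NK and innate lymphoid markers as covariates also called neither. Over the alternatives other than left-out libraries, that fit among them, the median log2 fold change of the tested genes ran from 0.37 to 0.71. The part of the myeloid markers alone in the 9 genes was not tested.

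**Figure D4:**
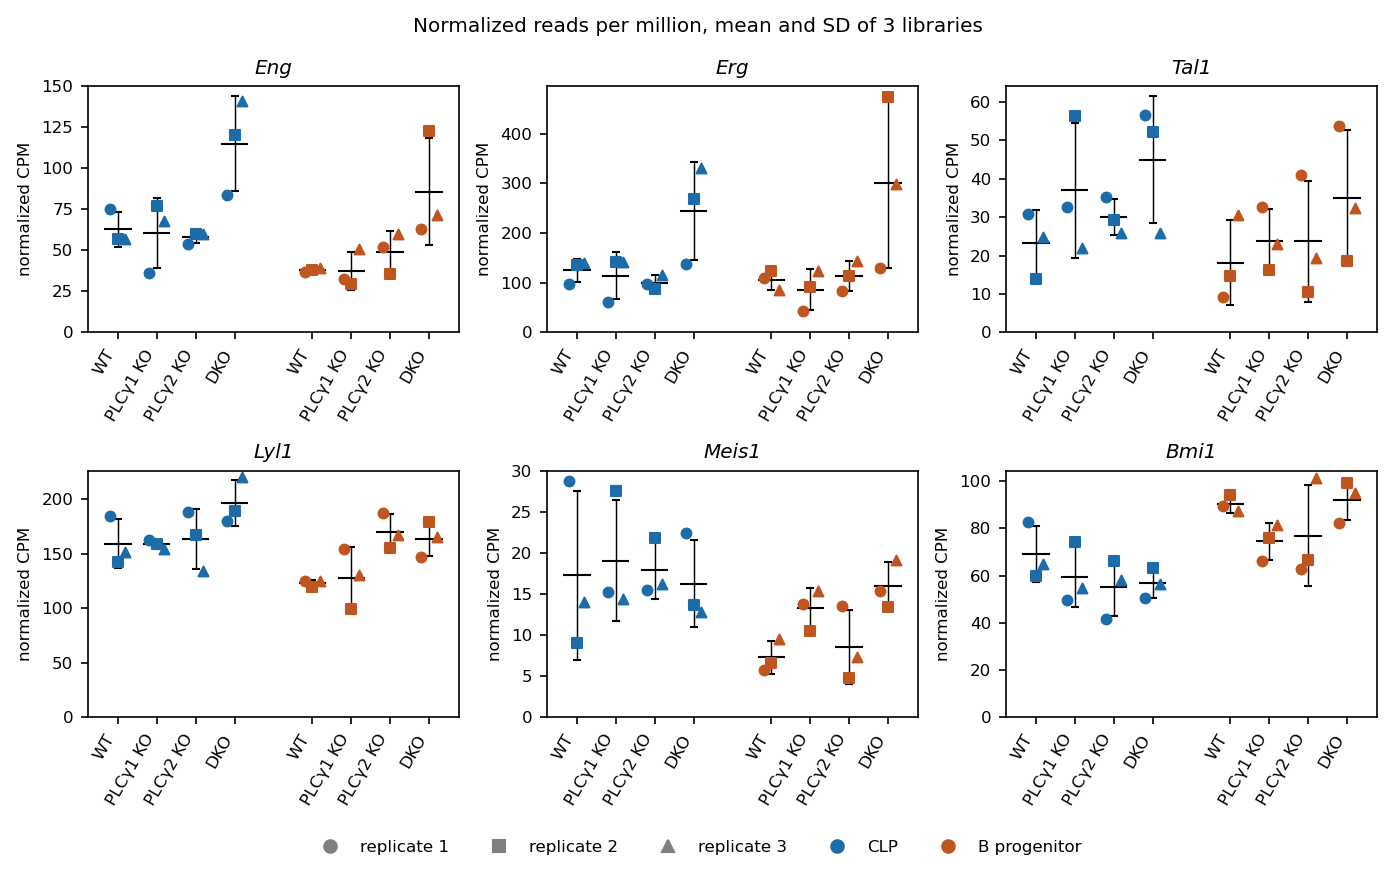
Normalized CPM of 6 genes in each library (linear axes from 0), by population and genotype, with points shaped by replicate number, the mean as a horizontal line and the SD of 3 libraries as a bar. Eng in double-deficient libraries lies above all wild-type libraries in both populations, Erg does so in B cell progenitors, and Bmi1 is higher in B cell progenitors than in CLPs of the same mouse in 12 of 12 mice.

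Lack of 1 phospholipase alone was not followed by a called change in the 35 genes. With 3 libraries a group, a count of 0 does not show that the genes were unchanged. In CLPs 0 of 35 were called in PLCγ1-deficient mice (0.00658% of all genes, 1 of 35 at an unadjusted p of at most 0.05) and 0 of 35 in PLCγ2-deficient mice (0%, 2 of 35). In B cell progenitors 0 of 33 were called in PLCγ1-deficient mice (0.06%, 5 of 33) and 0 of 33 in PLCγ2-deficient mice (0.0467%, 1 of 33). The shares of all genes at that p were 2.85% and 3.92% in CLPs and 9.93% and 2.84% in B cell progenitors. DESeq2 called 0 of the 35 genes in each of these 4 comparisons. The medians were 0.10 and 0.04 in CLPs and 0.56 and 0.31 in B cell progenitors, beside medians over all genes of -0.01, 0.01, 0.06 and 0.03. These medians moved with single libraries. With each library left out in turn they ran from -0.24 (without PLCγ1-deficient 2) to 0.74 (without wild-type 1) and from -0.23 (without PLCγ2-deficient 2) to 0.60 (without wild-type 1) in CLPs. The B cell progenitor medians ran from 0.15 (without PLCγ1-deficient 1) to 0.65 and from -0.13 (without PLCγ2-deficient 1) to 0.57 (without PLCγ2-deficient 2), and were 0.70 and 0.58 without the 2 libraries with the most detected genes. Groups did not overlap in CLPs for Sox4 alone between PLCγ1-deficient and wild-type mice (1 of 35 lower, against 2.84% of all genes, and 0 higher, against 3.17%). Between PLCγ2-deficient and wild-type CLPs they did not for Sox4 (1 lower, against 4.58%) and Pbx3 (1 higher, against 3.17%). PLCγ1-deficient B cell progenitors had 4 of 33 genes higher (Meis1, Hlf, Pbx3 and Tek, against 8.03%) and 3 lower (Msi2, Bmi1 and Cd93, against 11.2%), and PLCγ2-deficient ones had 1 higher (Lyl1, against 4.45%) and 0 lower (against 4.73%). The 5 genes at an unadjusted p of at most 0.05 in PLCγ1-deficient B cell progenitors were Pbx3, Meis1, Prom1, Hlf and Tek. Of these Tek was at 12.2 CPM in replicate 2, the library with the most olfactory receptor reads, and at 2.22 to 3.34 in the other two.

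Finally, B cell progenitors were compared with CLPs, first without a term for the mouse. Within each genotype, with 3 mice, 0 of 35 genes were called in wild-type mice (3.5% of 17212 genes), 0 in PLCγ1-deficient mice (3.78%), 0 in PLCγ2-deficient mice (3.21%) and 1 in double-deficient mice (3.24%). At an unadjusted p of at most 0.05 the counts were 9, 5, 4 and 2, where 16.1%, 26.5%, 16.2% and 14.3% of all genes reached it, and DESeq2 called 1, 0, 0 and 1. Over the alternatives other than left-out libraries, DESeq2 among them, the calls among all genes were 37 to 818, 32 to 1484, 34 to 764 and 37 to 751. The gene that edgeR called in double-deficient mice was Bmi1, a Polycomb protein that sustains self-renewal. It was at 50.6, 63.0 and 56.5 CPM in double-deficient CLPs and 82.3, 99.1 and 95.1 in B cell progenitors of the same mice, a log2 fold change of 0.70 (SE 0.19, adjusted p = 0.0484, edgeR). This call was lost when any of the 6 libraries was left out. The median log2 fold change of the 35 genes was -0.62 in wild-type, -0.41 in PLCγ1-deficient, -0.45 in PLCγ2-deficient and -0.04 in double-deficient mice. With each library left out in turn these ran from -0.92 (without B cell progenitors of wild-type 3) to -0.09 (without CLPs of wild-type 1), from -0.76 (without B cell progenitors of PLCγ1-deficient 1) to -0.24 (without those of 2), from -0.95 (without B cell progenitors of PLCγ2-deficient 1) to -0.17 (without those of 2) and from -0.25 (without B cell progenitors of double-deficient 1) to 0.21 (without CLPs of double-deficient 1).

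Since each mouse gave both populations, the comparison was repeated over all 12 mice with the mouse as a block, a test added after the data had been seen. It called 5 of 35 genes, 4 lower and 1 higher in B cell progenitors, against 13.7% of all genes, with 6.25% lower and 7.4% higher. The 35 genes were thus not called more often than genes in general. Their median log2 fold change was -0.42, beside 0.08 over all genes, and 8 of 35 were above 0, where 56.5% of all genes were. An unadjusted p of at most 0.05 was reached by 17 of them and by 7668 of all 17212 genes. Without the 2 mice whose B cell progenitor libraries had the most detected genes the median was -0.19, beside -0.01 over all genes. The CLP libraries of these 2 mice were also among the 4 that stood high in Flt3, Gata2, Hlf and Satb1. Leaving the mice out removes both, so the 2 features cannot be told apart here.

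Hlf had the largest of the called differences. Its level over 12 libraries had a lowest, median and highest value of 2.44, 11.1 and 28.03 CPM in CLPs and 2.75, 4.53 and 10.9 in B cell progenitors, and it was lower in B cell progenitors in 11 of 12 mice (-1.26, SE 0.30, adjusted p = 0.00440, edgeR). Eng was at 36.5, 64.1 and 141 in CLPs and 29.4, 45.0 and 123 in B cell progenitors, also lower in 11 of 12 mice (-0.53, SE 0.12, adjusted p = 0.00245, edgeR). Etv6, an ETS family repressor required by stem cells, was at 109, 182 and 243 against 77.7, 137 and 176 and lower in 11 of 12 mice (-0.51, SE 0.16, adjusted p = 0.0193, edgeR). Meis1 was at 9.02, 15.4 and 28.8 against 4.82, 11.996 and 19.2 and lower in 10 of 12 mice (-0.67, SE 0.24, adjusted p = 0.0379, edgeR). The ranges of all 4 genes overlapped between the populations. The test compared the populations within mice, and all 4 were also called when the mouse was left out of the fit.

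Tek was the only one of the 35 called higher in B cell progenitors, at 0.625, 1.64 and 6.39 CPM in CLPs and 0.558, 2.78 and 12.2 in B cell progenitors (0.77, SE 0.27, adjusted p = 0.0354, edgeR). Olfactory receptor reads were also more frequent there, with a median of 0.127 against 0.0700 CPM per kb. Bmi1 and Myb, a transcription factor of progenitors that early B cells also need, were higher in B cell progenitors in 12 of 12 mice, with log2 fold changes of 0.47 (SE 0.08, adjusted p = 0.000302) and 0.45 (SE 0.09, adjusted p = 0.00141, edgeR), just under the limit of 0.5. Lyl1, Lmo2 and Runx1 were lower at an adjusted p of at most 0.05, with log2 fold changes of -0.23, -0.42 and -0.30.

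Without these 2 mice, Hlf remained called (-0.98, adjusted p = 0.0217, edgeR) and Bmi1 passed both limits (0.56, adjusted p = 1.92e-05, edgeR). Eng kept an adjusted p of 0.00731 at -0.42, under the limit of size, while Etv6 was at -0.33 (adjusted p = 0.0763), Meis1 at -0.42 (adjusted p = 0.168) and Tek at 0.45 (adjusted p = 0.143, edgeR in all). Leaving out single mice left 1 call without PLCγ1-deficient mouse 2 (Hlf) and 2 calls without PLCγ2-deficient mouse 2 or wild-type mouse 1 (Eng and Hlf in both). In the comparison of 12 mice 4 of 10 T, NK and innate lymphoid markers were called lower in B cell progenitors (Gata3, Nkg7, Zbtb16 and Rora), and 2 of 10 B lineage markers were called higher (Rag1 and Rag2). Also called lower were 3 of 5 plasmacytoid dendritic markers (Bst2, Irf8 and Ccr9), 2 of 7 myeloid markers (Ctsg and Csf3r), 2 of 8 macrophage markers (Cd68 and C1qa) and 2 of 6 erythroid and megakaryocyte markers (Itga2b and Gata1). Their part in the values of the 35 genes was not tested, and the share of reads on no gene, which differed between all libraries of the populations, cannot be told apart from the population.

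**Figure D5:**
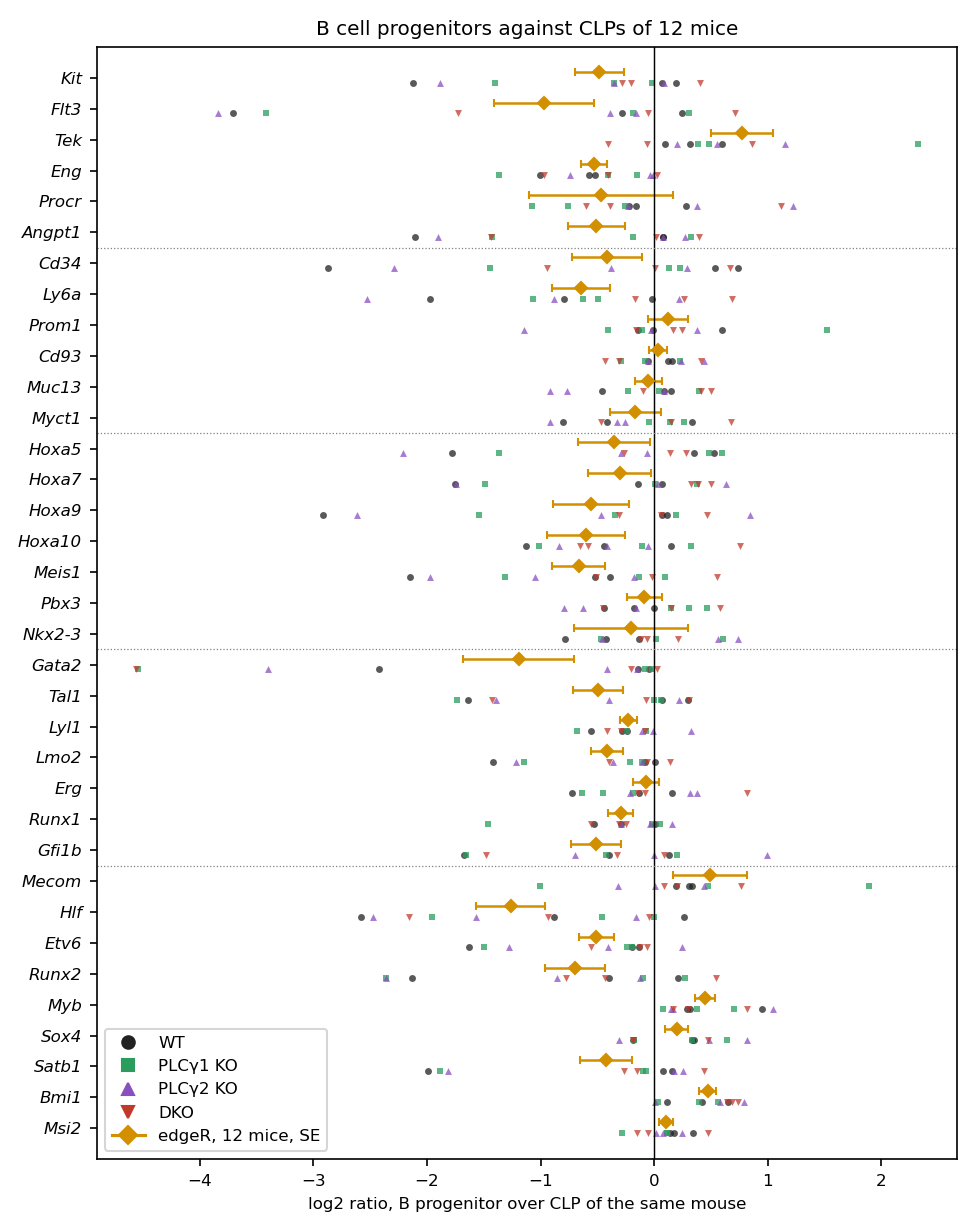
Log2 ratio of B cell progenitors over CLPs of the same mouse, with 1 added to each CPM, for 12 mice (small symbols by genotype) and the edgeR log2 fold change over 12 mice with its SE (diamonds), for each of the 35 genes. Bmi1 and Myb lie above 0 in 12 of 12 mice, and Hlf, Eng and Etv6 lie below 0 in 11 of 12.

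A list of 22 further stem and progenitor genes was examined in the same way. In each of the 8 genotype comparisons edgeR called 0 of the 21 tested in CLPs and 0 of the 19 tested in B cell progenitors, with 0 to 1 of 21 and 0 to 3 of 19 at an unadjusted p of at most 0.05, where the share of all genes was 2.85% to 7.52% in CLPs and 2.84% to 16.6% in B cell progenitors. Their median log2 fold change between double-deficient and wild-type mice was 0.05 in CLPs and 0.35 in B cell progenitors. Over the 12 mice 3 of 21 were called between the populations, Ctnnal1, Mn1 and Cd27, with 1 higher and 2 lower in B cell progenitors, against the 13.7% of all genes called.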

How the data were processed

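RNA-seq libraries of 24 samples were analysed. The authors purified poly(A) RNA, prepared libraries with a kit that does not mark strand, sequenced them on an Illumina NextSeq instrument and aligned reads to mm10 with STAR (2.5.0a per the submitters' processing notes). The deposited values are raw counts of reads per gene symbol, not normalized; the program that counted them is not given in the sources used here. The 2 lines that name no gene, reads on no gene (17.9% to 87.3% per library) and ambiguous reads (0.110% to 1.44%), were left out of library sizes and tests. No pair of libraries was identical.

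Differences were assessed by edgeR 4.0.16 under R 4.3.3 (filterByExpr, TMM, glmQLFit and glmQLFTest, Benjamini-Hochberg adjustment over all genes tested), in 1 fit per population for genotypes and 1 fit of 24 libraries for comparisons between populations. The SE was derived from the F statistic. A call needed an adjusted p of at most 0.05 and a log2 fold change of at least 0.5 in size, the limits of the study, which used DESeq2. DESeq2 1.42.0 was an alternative here. Normalized CPM are reads per 1000000 of the TMM-scaled library over all 24 libraries. The scripts were tested on simulated data. There, changes of 1 in log2 were called for 15.8% of changed genes between double-deficient and wild-type CLPs and 21.2% in B cell progenitors. Between populations in wild-type mice the share was 25.8%. For changes of 2 in log2 the shares were 63.9%, 60.8% and 59.6%. Depth limits precision, and 3 reads, the limit that a count of 0 allows, corresponded to 0.0903 to 0.709 CPM in CLP and 0.120 to 2.03 CPM in B cell progenitor libraries, which covers counting error only.

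The 35 genes and all lists were chosen with earlier results of these data known. Named with values in every library were, in each population, the 5 genes of lowest p between double-deficient and wild-type mice, where none was called; other genes were named for a call elsewhere, for groups that did not overlap, or after their values had been seen. The replicate numbers of CLP and B cell progenitor libraries pair them, since both come from the same mouse by the labels. Between genotypes the numbers were taken as pairs only where all 3 correlations of same-numbered deviations exceeded 0.1, as between double-deficient and PLCγ1-deficient mice (0.535, 0.768 and 0.458 in CLPs, 0.398, 0.145 and 0.138 in B cell progenitors). Promoter sequences are from RefSeq (GRCm38.p6), and exon lengths from GENCODE M21.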

Additional observations from a re-analysis of the deposited data

How the results depend on the processing

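Among the 35 genes, the number called changed as follows. Between double-deficient and wild-type B cell progenitors it was 0, but 2 with DESeq2, 1 when only the groups compared were fitted, 1 without the 2 libraries with the most detected genes, 5 with the replicate number as a block (Meis1, Runx2, Eng and Flt3 higher, Sox4 lower) and 0 to 1 with each library left out. Same-numbered mice of these genotypes share only a number, with correlations of -0.03, 0.39 and 0.13. Against PLCγ1-deficient B cell progenitors it was 0, but 2 with DESeq2, 1 with the replicate block and 0 to 1 with each library left out. Between double-deficient and wild-type CLPs it was 0, but 2 with the marker covariates. Between populations it was 0 in wild-type mice, but 1 with DESeq2 (Meis1), 0 to 1 in PLCγ1-deficient mice with each library left out, and 1 in double-deficient mice, but 0 with no filter on low counts, 0 after thinning to the smallest library, 0 without the 2 libraries and 0 with each library left out. Over 12 mice it was 5, but 8 with DESeq2, 2 without the 2 mice, 10 by adjusted p alone and 1 to 7 with each mouse left out, the lowest without PLCγ1-deficient mouse 2 (1), PLCγ2-deficient mouse 2 (2) and wild-type mouse 1 (2). Of all 17212 genes tested there, 2350 were called in the main fit, 2969 with DESeq2 and 6011 by adjusted p alone. Without the 2 mice 1345 of 16403 genes were called, and with each mouse left out 1812 to 3054. In the other comparisons of 3 mice the block changed no count of these genes. Over 12 mice leaving the block out gave 7, beside 2476 of all genes. Between double-deficient and wild-type CLPs fold changes with each library left out ran from -0.74 to 0.37 for Hoxa7, above 0 without wild-type 1, and from -0.43 to 0.45 for Meis1, above 0 without wild-type 1, without double-deficient 2 (0.0058) and without double-deficient 3 (0.03). The cause was not tested.

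The number of all genes called moved further, here given as the full range over alternatives other than left-out libraries. In CLPs it was 0 to 183 beside 14 (double-deficient against wild type), 0 to 16 beside 1 (PLCγ1-deficient), 0 to 11 beside 0 (PLCγ2-deficient) and 0 to 96 beside 4 (double-deficient against PLCγ1-deficient). In B cell progenitors the same comparisons gave 28 to 550 beside 134, 6 to 325 beside 9, 0 to 17 beside 7 and 0 to 802 beside 32. Between populations it was 37 to 818 beside 602 in wild-type, 32 to 1484 beside 650 in PLCγ1-deficient, 34 to 764 beside 552 in PLCγ2-deficient and 37 to 751 beside 557 in double-deficient mice. The median of the 35 genes between double-deficient and wild-type B cell progenitors stayed between 0.33 and 0.88 with each library left out. In CLPs it moved from -0.05 to 0.45 without wild-type 1. Depth limits what can be detected for the lowest genes, Procr, Nkx2-3, Mecom, Tek and Hoxa10. The alternatives of libraries and mice chosen for detected genes, the marker covariates and the test over 12 mice were added after the data had been seen.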
